A study of Caenorhabditis elegans with 2 samples.

Results

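The genes examined here are the core components of the DBL-1 pathway, the branch of TGF-beta signalling that sets body size in Caenorhabditis elegans. They were chosen by name rather than by a measured value, but with earlier results of these data known. They comprise dbl-1, sma-2, sma-3, sma-4, sma-6, sma-9, daf-4, lon-1 and lon-2, which is 9 of 19973 protein-coding genes in the nuclear genome. Each was searched for peaks of the epidermal GATA factor ELT-3 whose summit lay between 5 kb upstream of the annotated 5′ end and the end of the gene, a span called the window below. ELT-3 was profiled by ChIP-seq in whole L1 larvae, in 2 biological replicates that form a single group. The strain, OP75, is mutant for unc-119 (allele ed3) and carries the transgene wgIs75, from which ELT-3 is made with GFP and FLAG fused to its C terminus. The sexes were pooled, and the transgenic strain was the only one analysed here, with no second genotype, stage or treatment. Because whole larvae were used, the peaks cannot be assigned to the epidermis or to any other tissue.

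DBL-1 is a secreted ligand of the BMP type, made largely by neurons, that acts on the epidermis. It binds a receptor complex of SMA-6 and DAF-4, which activates the Smad proteins SMA-2 and SMA-3, and these enter the nucleus together with SMA-4 and act with the zinc finger protein SMA-9. LON-2, a glypican at the cell surface, restrains the ligand, and lon-1 encodes a secreted protein whose transcription is repressed by the pathway. Worms that lack a positive component are small, and worms that lack LON-1 or LON-2 are long.

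Peaks were taken from the list thresholded by the irreproducible discovery rate (the IDR list, 1014 peaks), from the list called on both replicates pooled (30000) and from the lists of replicate 1 (17087) and replicate 2 (7079), all on the ce11 build. The pooled and replicate lists include background regions, so their ranks were read rather than the mere presence of a peak. Rank 1 is the highest signal of a list, and a peak among the 1014 highest signals of its list is called a top peak. Signals are the authors' own values, and their scale differs between lists. Read depth is unknown, since the lists hold no read counts. With a single group of 2 replicates there was no contrast between conditions to test. Shares are set beside the same share over all genes or all IDR peaks, with no p-value, since the genes were chosen with earlier results of these data known.

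IDR peaks lay at the nuclear component genes sma-3, sma-4 and sma-9 and at lon-1, and at none of the genes for the ligand, its receptors or the glypican. Windows of 4 of the 9 genes (sma-3, sma-4, sma-9 and lon-1) held 6 IDR peaks, of which sma-9 held 3. The Smad gene sma-2, the remaining nuclear component, held none. The sma-4 peak lay 3290 bp upstream, nearer to the 5′ end of R12B2.7 than to that of sma-4. Over all protein-coding genes, 7.01% had an IDR peak in the same kind of window, and 0.195% had 3 or more. The windows ran from 7.28 kb at dbl-1 to 18.7 kb at sma-9, with a median of 8.97 kb, against 7.03 kb over all genes, and a longer window has more room for a peak. Per length, the 99.1 kb of windows held 6.06 IDR peaks per 100 kb (95% exact Poisson interval 2.22 to 13.2, counting error only), compared with 1.02 per 100 kb in the merged windows of all protein-coding genes. The interval treats the 6 peaks as independent, although 3 lay at sma-9 and 2 of those were 137 bp apart. The top peaks of the other lists fell at nearly the same genes. The lists are not independent, since the IDR list was made from the others and the pooled list holds both replicates. Of the 9 genes, 4 had a top peak in the pooled list (7.74% of all genes), 4 in replicate 1 (7.6%) and 3 in replicate 2 (7.78%), the exception in replicate 2 being sma-3.

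**Figure D1:**
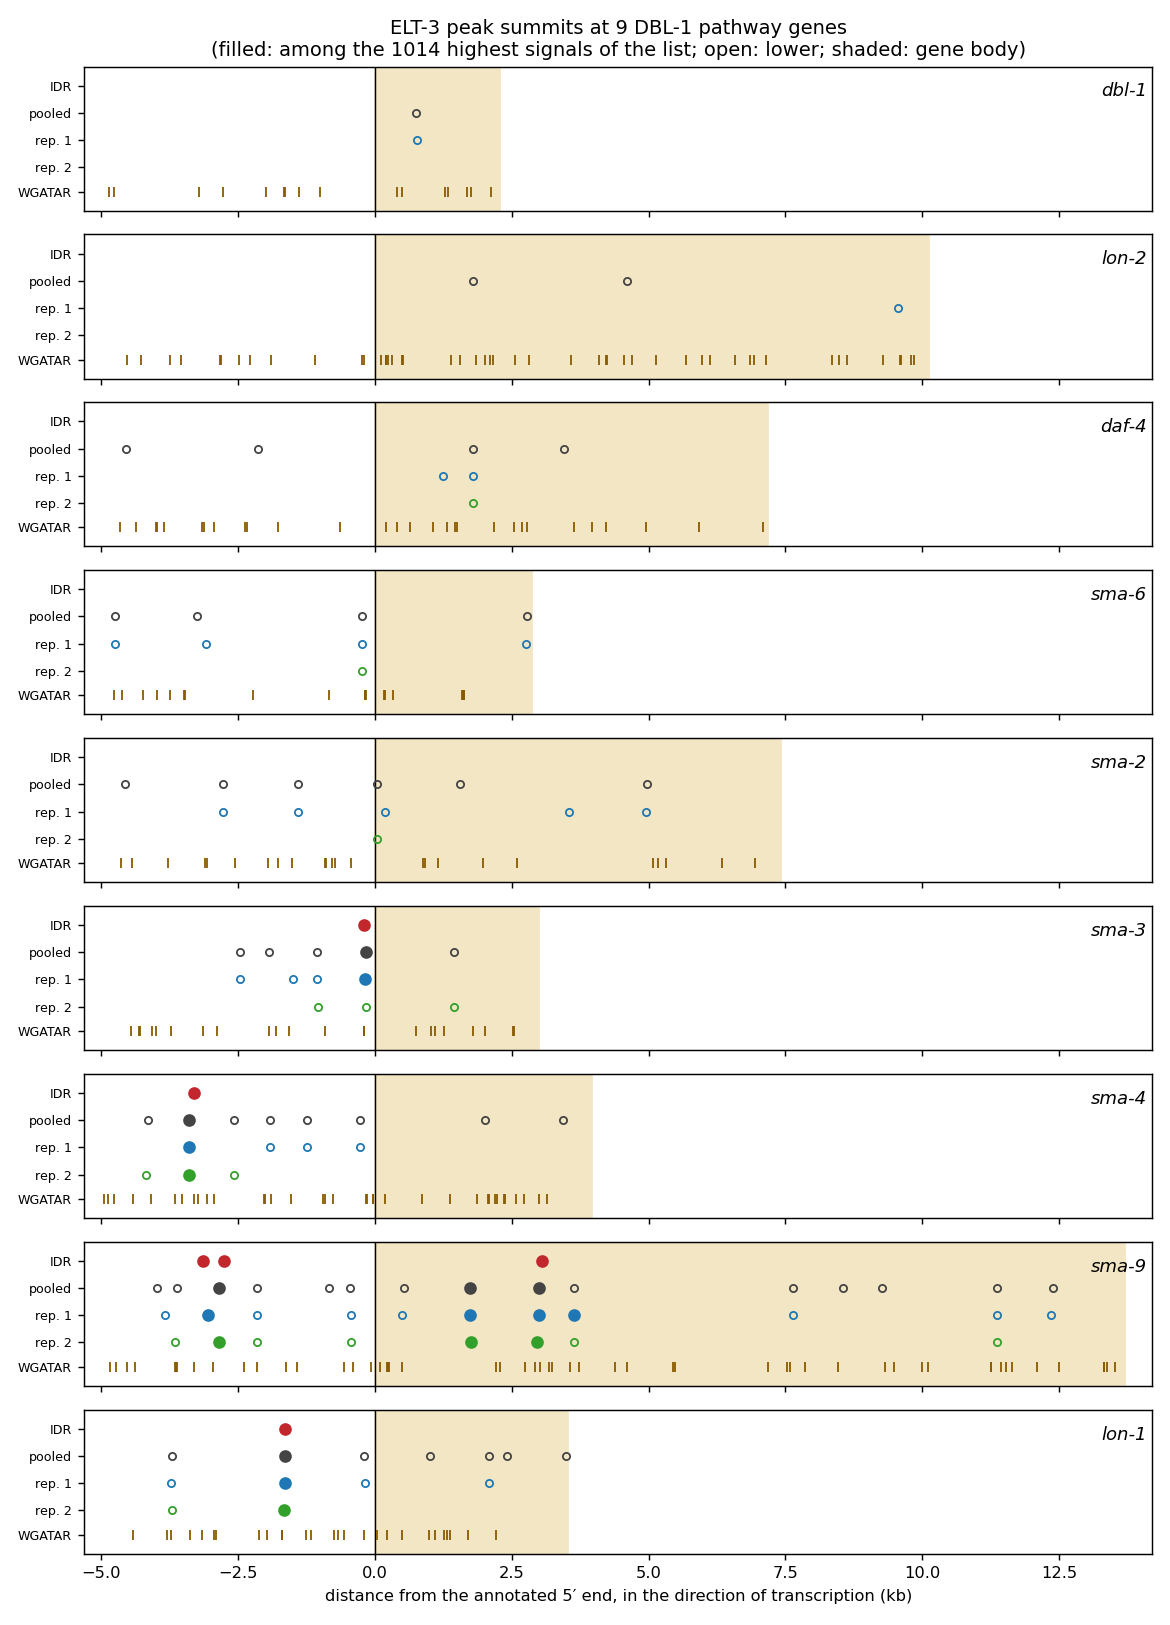
Summits of ELT-3 peaks in the windows of the 9 genes, by distance from the annotated 5′ end in the direction of transcription (kb). Each gene has a row for the IDR, pooled, replicate 1 and replicate 2 lists and a row of ticks for WGATAR sites. Filled circles are among the 1014 highest signals of their list, open circles are lower, and shading marks the gene body. Filled circles occur at sma-3, sma-4, sma-9 and lon-1, upstream of the gene in each and also in introns at sma-9.

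The sequences at 5 of the 6 IDR summits are shown because they differ in whether they hold the motif that GATA factors recognise. Each spans 75 bp on either side of the summit, is read 5′ to 3′ on the strand of the gene, and comes from the RefSeq copy of WBcel235, the assembly also called ce11. Capitals mark WGATAR, the consensus of GATA factors, on either strand, where W stands for A or T and R for A or G.
sma-3, 188 bp upstream, chrIII:6864081-6864231, minus strand: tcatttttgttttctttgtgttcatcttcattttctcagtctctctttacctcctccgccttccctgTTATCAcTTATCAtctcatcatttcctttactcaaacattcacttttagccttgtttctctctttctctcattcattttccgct
sma-4, 3290 bp upstream, chrIII:5812867-5813017, plus strand: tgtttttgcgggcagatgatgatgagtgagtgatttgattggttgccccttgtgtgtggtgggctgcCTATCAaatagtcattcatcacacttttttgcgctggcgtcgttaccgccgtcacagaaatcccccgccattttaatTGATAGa
sma-9, 2743 bp upstream, chrX:10766464-10766614, plus strand: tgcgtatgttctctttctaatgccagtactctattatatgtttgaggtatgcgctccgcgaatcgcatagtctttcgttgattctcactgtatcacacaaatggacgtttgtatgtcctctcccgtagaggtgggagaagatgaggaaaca
sma-9, 3136 bp upstream, chrX:10766071-10766221, plus strand: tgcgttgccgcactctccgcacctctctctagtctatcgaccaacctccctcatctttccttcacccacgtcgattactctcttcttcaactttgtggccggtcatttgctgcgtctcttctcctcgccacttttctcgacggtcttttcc
lon-1, 1639 bp upstream, chrIII:5472762-5472912, plus strand: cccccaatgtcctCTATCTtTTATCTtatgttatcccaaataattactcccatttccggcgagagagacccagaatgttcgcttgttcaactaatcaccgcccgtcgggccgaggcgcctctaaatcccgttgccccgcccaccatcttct

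The 2 sites of the sma-3 sequence lie at its centre, the sites of the lon-1 sequence lie near its left edge, and neither upstream sequence of sma-9 has a site.

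At dbl-1, which encodes the ligand (WBGene00000936; V, 6758135 to 6760418, plus strand), no IDR peak was present and ELT-3 signal was low in the pooled list. The strongest pooled peak was intronic, with its summit 762 bp past the 5′ end, a signal of 17.3 and rank 17530. Replicate 1 had a peak of signal 12.2 at almost the same place (769 bp, rank 4220), and replicate 2 had none in the window. The nearest IDR summit outside the window was 234 kb from its edge, the longest such distance among the 9 genes. A peak at least as strong as that of dbl-1 was present for 69.4% of all genes in the pooled list and for 25.5% in replicate 1, where dbl-1 ranked ahead of the other 4 genes without an IDR peak.

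lon-2, the glypican gene (WBGene00003056; X, 4738964 to 4749083, minus strand), also had no IDR peak and a low pooled signal. Its strongest pooled peak lay in a coding exon 1787 bp downstream, with a signal of 16.9 and rank 18892, and 72.05% of all genes had a peak at least as strong (35.4% for its replicate 1 peak). The only replicate 1 peak lay far downstream in an intron (9551 bp, signal 10.6, rank 6378), away from both pooled peaks. Replicate 2 had none, although the window of 15.1 kb was the second longest of the 9 and held 49 WGATAR sites.

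The receptor genes had weak peaks that recurred in both replicates. In daf-4, the gene of the type II receptor that the dauer pathway also uses (WBGene00000900; III, 5625135 to 5632323, plus strand), an intronic peak lay 1805 bp downstream in replicate 1 and 1790 bp downstream in replicate 2. Its signals were 11.1 and 15.6, at ranks 5516 and 6929, and the pooled peak there ranked 4723. In replicate 2 this was close to the bottom of the list of 7079. At sma-6, the gene of the type I receptor (WBGene00004860; II, 6324484 to 6327355, plus strand), a peak just upstream of the gene, at 238 bp in replicate 1 and 233 bp in replicate 2, had signals of 8.85 and 18.6 and ranks 11171 and 4248. The pooled peak there had a signal of 27.7 and rank 4326. The strongest replicate 1 peak in the sma-6 window was another, 4739 bp upstream in a coding exon of efr-3 (signal 11.2, rank 5363). That summit in efr-3 had a WGATAR site within 50 bp, and the recurring summits at daf-4 and sma-6 had none within 50 bp. At sma-6, however, WGATAR sites lay just past that limit, between the summits and the 5′ end. They were inside the pooled, replicate 1 and replicate 2 peaks there, whereas the recurring daf-4 peaks held no site. Over the pooled list, a peak at least as strong as that of daf-4 or sma-6 was present at 27.4% or 25.5% of all genes.

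Of the Smad genes, sma-2 was the one without an IDR peak. sma-2 encodes a receptor-activated Smad (WBGene00004856; III, 8749680 to 8757089, plus strand). Its strongest pooled peak lay 36 bp downstream of the 5′ end, in the 5′ UTR and within an intron of the overlapping gene ugtp-1, with a signal of 36.0 and rank 2563. Replicate 2 had a peak with the same summit and a signal of 28.7 (rank 1767), but the nearest replicate 1 summit was at 194 bp, with a signal of 8.54 and rank 12429. The strongest replicate 1 peak lay 4963 bp downstream, in an intron that overlaps a coding exon of tomm-70 (signal 9.87, rank 8012). The replicates thus differed in how this site ranked, and 16.6% of all genes had a pooled peak at least as strong. The nearest IDR summit lay beyond the upstream edge of the window, by 5398 bp.

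sma-3, the gene of the other receptor-activated Smad (WBGene00004857; III, 6860974 to 6863968, minus strand), was the only gene of the 9 with an IDR summit next to its 5′ end. The peak (III, 6864028 to 6864283) had its summit 188 bp upstream in intergenic sequence, and sma-3 had the nearest 5′ end. Its signal was 51.0, rank 828 of 1014 in the IDR list. It was overlapped in replicate 1 (signal 26.2, rank 758) and in replicate 2 (signal 36.8, rank 1063), with summits 20 bp apart. It was thus among the top peaks of replicate 1 and just outside those of replicate 2. The pooled peak there had a signal of 65.2 and rank 795. The same IDR summit also fell in the window of clec-158.

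sma-4 encodes the co-Smad, the partner of SMA-2 and SMA-3 (WBGene00004858; III, 5816232 to 5820204, plus strand). Its IDR peak (III, 5812814 to 5813069) lay much farther out, 3290 bp upstream, with a signal of 49.0 and rank 904. It ranked higher in the other lists, with a signal of 35.4 and rank 329 in replicate 1, 39.95 and rank 882 in replicate 2, and 75.8 and rank 552 in the pooled list. The replicate summits were 2 bp apart but lay more than 90 bp from the IDR summit. Assigning peaks by the nearest 5′ end, or ending the window at the next gene upstream, left sma-4 with no IDR peak. The nearest 5′ end was that of R12B2.7, at 2103 bp, and the summit lay within the annotated noncoding RNA gene R12B2.12. No peak in the rest of the sma-4 window was a top peak of any list, and the pooled peak closest to its 5′ end (265 bp upstream) ranked 9932.

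sma-9 encodes a large zinc finger protein of the Schnurri family, which works with Smads (WBGene00004862; X, 10769282 to 10782973, plus strand). It had the most ELT-3 peaks of the 9 genes, with 3 in the IDR list, 15 in the pooled list, 11 in replicate 1 and 8 in replicate 2. Its window was also the longest of the 9, at 18.7 kb, and the pooled and replicate lists include background regions. The annotation gives 6 transcript starts for sma-9. Its intronic IDR peak lay upstream of a later transcript start and had a signal of 55.5 and rank 654. Both replicates had this peak, with a signal of 24.7 and rank 859 in replicate 1 and 68.8 and rank 185 in replicate 2, and its pooled rank was 304.

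The other IDR peaks of sma-9 lay side by side upstream, with no other 5′ end nearer. The stronger (X, 10766411 to 10766666, 2743 bp upstream) had a signal of 79.4 and rank 218. The weaker (X, 10766018 to 10766273, 3136 bp upstream) had a signal of 48.1 and rank 934, and 137 bp separated the 2 intervals. The stronger one overlapped a peak of replicate 2 (signal 66.0, rank 212) and none of replicate 1, and the weaker one a peak of replicate 1 (signal 40.9, rank 208) and none of replicate 2. Those replicate peaks overlapped each other by 88 bp, with summits 199 bp apart. A single pooled peak covered part of the region (2840 bp upstream, rank 743). Whether the 2 IDR peaks are separate sites was not tested.

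A further site in sma-9 was strong in 3 lists and missing from the IDR list. It was intronic, with its summit 1749 bp past the 5′ end in the pooled list (signal 81.2, rank 472), 1750 bp in replicate 1 (signal 28.0, rank 645) and 1756 bp in replicate 2 (signal 54.0, rank 419). Its replicate summits agreed more closely than those of the intronic IDR peak. The sequence around its pooled summit is shown for comparison with those above, and it holds no WGATAR.
sma-9, 1749 bp downstream, chrX:10770956-10771106, plus strand: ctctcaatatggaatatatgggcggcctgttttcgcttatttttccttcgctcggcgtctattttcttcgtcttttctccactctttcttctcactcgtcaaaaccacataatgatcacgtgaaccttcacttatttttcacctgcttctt

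lon-1 encodes a secreted protein of the cysteine-rich CAP family that limits body length downstream of the Smads (WBGene00003055; III, 5474476 to 5478005, plus strand). Its peak had the highest IDR signal of the 6. The peak (III, 5472709 to 5472964) lay 1639 bp upstream in intergenic sequence, fell in the window of no other protein-coding gene, and had a signal of 90.2 and rank 137. It was a top peak in replicate 1 (signal 28.4, rank 624) and replicate 2 (signal 67.2, rank 202), with summits 29 bp apart, and ranked 284 in the pooled list, where 2.42% of all genes had a peak at least as strong. The next IDR summit upstream lay 4401 bp beyond the edge of the window. Weaker lon-1 peaks at about 3.7 kb upstream recurred in replicate 1 (3709 bp, rank 3126) and replicate 2 (3704 bp, rank 3243). A peak 184 bp upstream of the 5′ end ranked 2038 in replicate 1, and replicate 2 had none there.

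**Figure D2:**
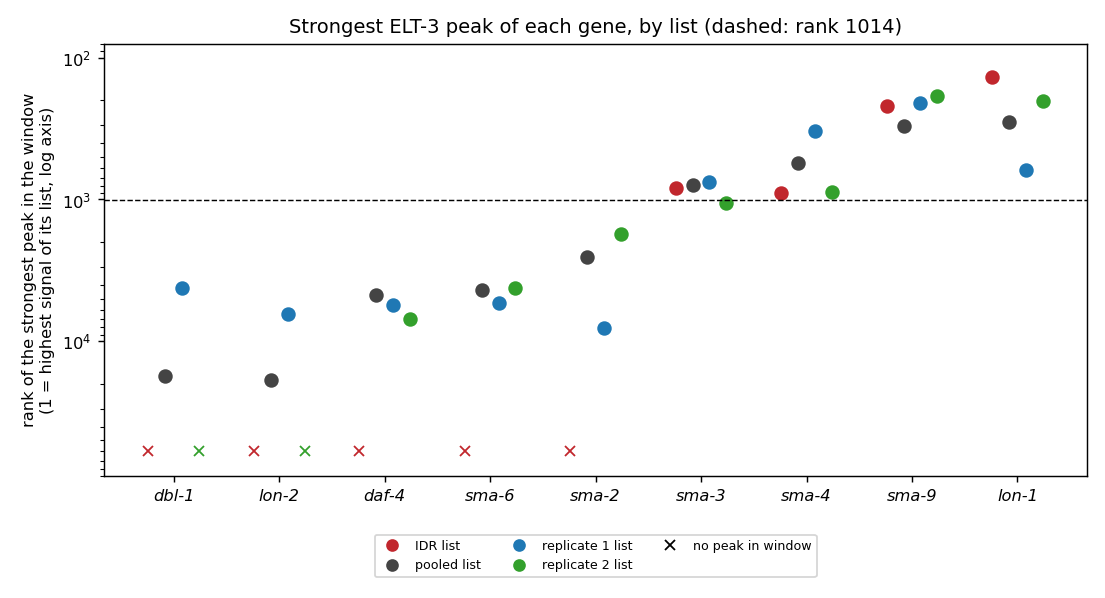
Rank of the strongest peak in the window of each gene, on a log axis with stronger peaks at the top, for the IDR, pooled, replicate 1 and replicate 2 lists. The dashed line marks rank 1014 and crosses mark genes with no peak in that list. Points for sma-4, sma-9 and lon-1 lie above the line in every list, sma-3 is at 1063 in replicate 2, and dbl-1, lon-2, daf-4, sma-6 and sma-2 lie below it in every list where they have a point.

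By their strongest peak the genes split the same way in each list. That is partly built in, since the pooled list holds both replicates and the IDR list was made from these lists. sma-9, lon-1, sma-4 and sma-3 came before the other 5 in the pooled, replicate 1 and replicate 2 lists, while sma-2 came next after them in the pooled list and replicate 2 and last in replicate 1. Mere presence of a peak said little. All 9 genes had some pooled peak in the window, as did 87.2% of all genes, 9 had some replicate 1 peak (69.3% of all genes), and 7 had some replicate 2 peak (37.8%). Of the 6 IDR peaks, 4 were overlapped by a peak of each replicate, which 89.3% of all IDR peaks were, and the exceptions were the adjacent upstream peaks of sma-9. Within the IDR list 2 of the 6 peaks, those of lon-1 and the stronger upstream peak of sma-9, were among the 507 highest signals, and the median rank of the 6 was 741.

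GATA sites were present at some of these peaks and absent from others. WGATAR lay within 50 bp of 3 of the 6 IDR summits (50%, 95% Wilson interval 18.8 to 81.2%), at sma-3, at sma-4 and in the sma-9 intron. Over the whole IDR list the share was 52.6%, and 19.8% of consecutive segments of the same span along the chromosomes held the motif on either strand. At sma-3 both sites read TGATAA and were centred 1.5 and 5.5 bp from the summit. At sma-4 a TGATAG was centred 5.5 bp from the IDR summit, with another at 71.5 bp, although the pooled and replicate summits lay more than 90 bp away from the IDR summit, and the pooled summit had no site within 50 bp. At lon-1 an AGATAA and an AGATAG lay 52.5 and 59.5 bp from the IDR summit, just past the limit of 50 bp, and within 50 bp of the replicate 2 summit.

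**Figure D3:**
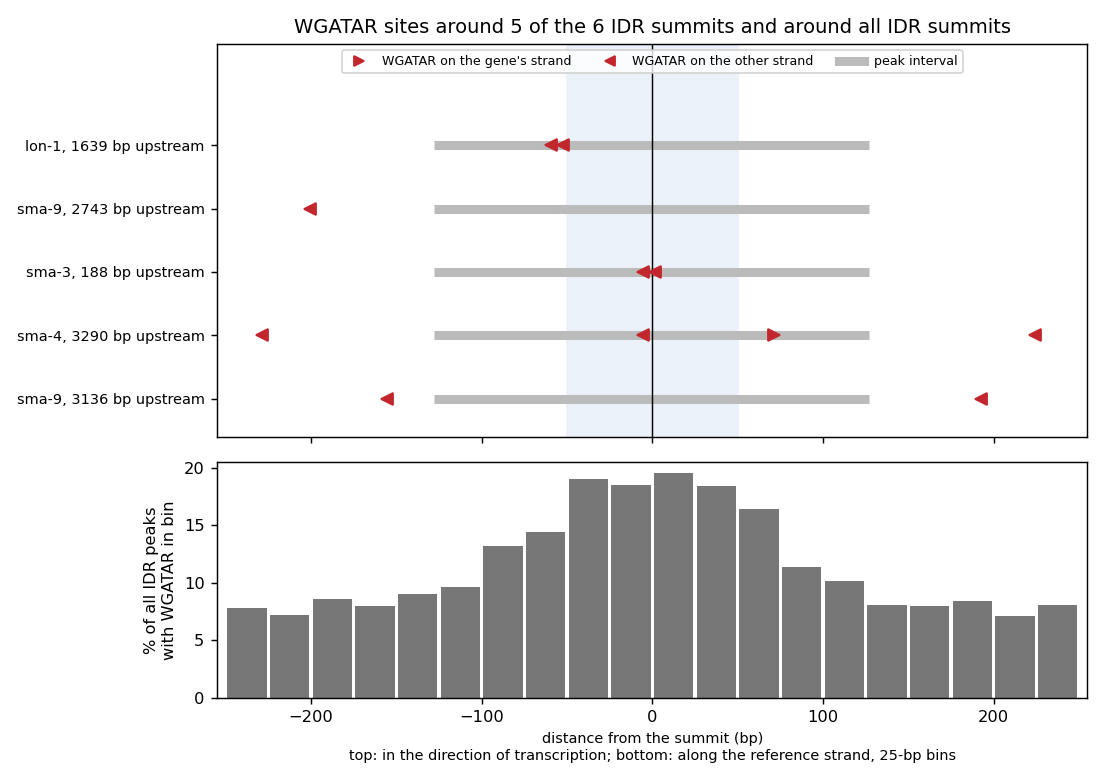
Positions of WGATAR sites around 5 of the 6 IDR summits (top; distance from the summit in bp, in the direction of transcription; grey bars are peak intervals, triangles point along the strand of the site, the pale band is 50 bp on either side) and the share of all 1014 IDR peaks with a site in each 25-bp bin (bottom, in percent, along the reference strand). The share is 19.5% in the bin just after the summit and 7.79% in the bin farthest to the left. Sites lie close to the summit at sma-3 and sma-4, and the sma-9 upstream peaks have none inside the peak.

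The stronger and the weaker upstream peak of sma-9 had no WGATAR anywhere in the interval, whereas 74.7% of all IDR peaks had at least 1 within the peak. The nearest lay 200.5 bp from the summit of the stronger peak and 155.5 bp from that of the weaker. The site nearest the stronger peak, an AGATAA (X, 10766336 to 10766341), lay inside the pooled, replicate 1 and replicate 2 peaks of this region. It was more than 50 bp from each of their summits. The bare letters GATA lay within 50 bp of all 6 summits, which was also true of 72.6% of the IDR list and 47.3% of the segments. GAGAGA, searched because it is frequent at ELT-3 summits in these data, lay within 50 bp at sma-3, at the sma-9 intron and at lon-1 (26.2% of the IDR list and 5.18% of segments). It can share its last 3 letters with the first 3 of AGATAA or AGATAG, which it did in neither printed sequence with a GAGAGA near its summit.

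Both sma-3 and lon-1 had their sites as a tandem pair in 1 orientation with a single base between them, an arrangement picked out after the sequences were seen. Such a pair, with 7 bp from start to start, lay within 75 bp of the summit in 18 of 1014 IDR peaks (1.78%) and in 0.0807% of consecutive segments of the same length as the printed sequences along the chromosomes. A spacing of 8 bp was about as common, in 17 IDR peaks, and 356 IDR peaks had at least 2 sites in any arrangement.

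Most GATA sites in the windows were away from IDR peaks. The 9 windows held 276 WGATAR sites, or 2.79 per kb, compared with 2.39 per kb over the windows of all genes. Of the 276, 4 lay within 50 bp of an IDR summit (1.45%), against 0.378% over all windows. Both shares depend on the density of IDR peaks, which was 6.06 per 100 kb here and 1.02 per 100 kb over all windows. The 4 genes with an IDR peak had 4.01 (sma-4), 3.17 (lon-1), 2.89 (sma-9) and 2.75 (sma-3) sites per kb of window. Of the 5 genes without one, sma-6 (2.41), daf-4 (2.38), dbl-1 (2.20) and sma-2 (1.93) had fewer sites per kb than any of these, and lon-2 (3.24) had more than all but sma-4.

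Other genes of TGF-beta signalling and body size were listed as a comparison. An IDR peak was present in the window of 44.4% of the 9 pathway genes (median window 8.97 kb) and of 7.01% of all protein-coding genes (7.03 kb). Among 11 modulators of DBL-1 signalling (median window 10.5 kb), 2 had an IDR peak in the window (18.2%). adt-2, which encodes a secreted metalloprotease, had 3, with signals of 109, 69.4 and 56.0 at ranks 75, 329 and 638. The first of these, 2051 bp upstream, ranked 1815 in replicate 1 and 227 in replicate 2, and the second ranked 1919 and 3583. sma-10, which encodes a membrane protein with leucine-rich repeats that promotes DBL-1 signalling, had a peak 2 bp from its 5′ end (signal 52.0, rank 786), which ranked 443 in replicate 1 and 666 in replicate 2. In the dauer branch (median window 10.4 kb), 2 of 6 genes had an IDR peak (33.3%). They were daf-14, a Smad gene (782 bp downstream in an intron, signal 77.5, rank 232 in the IDR list, 346 in replicate 1 but 4743 in replicate 2), and daf-5, a Ski-related gene (1681 bp downstream in an intron, signal 66.3, rank 392 in the IDR list, 684 in replicate 1 and 217 in replicate 2).

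None of the 3 other ligand genes had an IDR peak, like dbl-1. unc-129 had no peak of any list in its window, and tig-2 and tig-3 had pooled ranks of 6453 and 6485. Of 8 body size genes outside the pathway, 1 had an IDR peak. This was egl-4, a cGMP-dependent kinase gene with a window of 37.5 kb and 2 IDR peaks at ranks 403 and 566. The peak at rank 566 lay 2688 bp upstream, in an intron of ccm-2, although egl-4 had the nearest 5′ end. None of the 4 collagen genes rol-6, col-41, col-141 and col-142 had an IDR peak. Their strongest pooled peaks ranked between 3788 and 10466, with 1 peak shared by the windows of col-141 and col-142. The median rank of the strongest pooled peak was 2563 for the 9 genes and 10315 for all protein-coding genes.

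**Figure D4:**
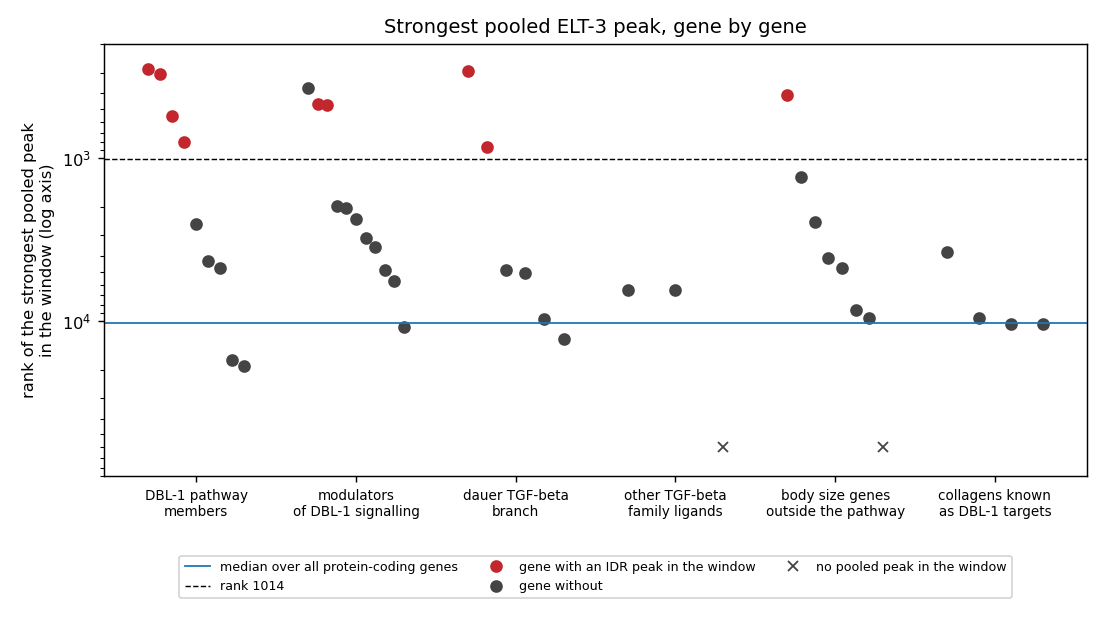
Rank of the strongest pooled peak in the window of each gene (log axis, stronger peaks at the top) for the 9 DBL-1 pathway genes and 5 comparison lists. Red points are genes with an IDR peak in the window, dark points are genes without, and crosses are genes with no pooled peak. The blue line is the median over all protein-coding genes (10315) and the dashed line is rank 1014. The ligand and collagen lists have no point above the dashed line.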

How the data were processed

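Per the deposited records, the authors listed peaks together with background for each replicate and for the pooled replicates, against a control, and then made the IDR list from these. The IDR peaks at these genes nevertheless coincide with no pooled peak, their summits lie 7 to 97 bp from the overlapping pooled summit, and 1 at sma-9 overlaps none. The records do not explain this, and distances from motif to summit depend on it. The read aligner and peak caller were not given in the sources used here. Each peak has a signal, as the authors deposited it, read only as a rank within its list. The deposited q-value score entered no result. The ce10 lists were not used, because the genome and annotation at hand are of ce11.

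Protein-coding genes came from Ensembl release 115 and sequence from RefSeq, both on WBcel235. The sequence at 1 IDR peak is not reported here. Overlap needed at least 1 bp. Motifs were searched on both strands, wholly inside the stated span. Coordinates are 1-based. The genes, the comparison lists and the alternatives were chosen with earlier results of these data known. Named were all 9 genes with every IDR peak, their strongest peaks in the other lists, and up to 4 genes with an IDR peak per comparison list. Weaker peaks, the site in sma-9 outside the IDR list, the tandem pairs and further genes of the comparison lists were chosen after their values were seen. Alternatives were other windows, peak sets, motifs, motif spans and overlap rules. No p-value was computed. Python 3.11.15 was used with numpy 2.4.6, pandas 2.3.3, scipy 1.17.1, statsmodels 0.14.6 and matplotlib 3.10.9, and the search functions were tested on simulated data.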

Additional observations from a re-analysis of the deposited data

How the results depend on the processing

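The counts changed most with the window and the list length. With the 507 IDR peaks of highest signal, 2 genes (sma-9 and lon-1) had an IDR peak, with 2 peaks in all, 0 of them with WGATAR within 50 bp, and 2.02 peaks per 100 kb. In a window reaching 1500 bp before and 500 bp past the 5′ end, 1 gene, sma-3, had a peak, 1 in all, and 1 with WGATAR. The density in that shorter window was 5.55 per 100 kb. From 2 kb upstream to the gene end there were 3 peaks, at 4.16 per 100 kb. All 6 summits had GATA within 50 bp, and 1 had GATAAG. When 1 replicate's top peaks stood in for the IDR list, the number of genes was 3 to 4, of peaks 5 to 7, of peaks with WGATAR 2, and the density 5.05 to 7.07 per 100 kb, with sma-3 the gene lost without replicate 1. Every other alternative tried kept each of these counts within 1.5 times of the reported one and the density within its counting interval, among them the pooled top peaks, a window from 10 kb upstream, the window ended at the next gene and the nearest 5′ end alone, the last 2 of which dropped sma-4. Counting IDR peaks at most 200 bp apart as 1, or using pooled top peaks that were top peaks in both replicates, which leaves out sma-3, were chosen after seeing the data, and each gave 5 peaks. No paired analysis was possible because the samples form a single group. Read depth is unknown, so whether a weak peak reflects low occupancy or shallow coverage was not tested.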

Other observations

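drag-1, a gene of the repulsive guidance molecule family that promotes DBL-1 signalling, had strong peaks in 3 lists without an IDR peak in its window. The pooled summit lay 3736 bp upstream (signal 88.1, rank 371). The peak over it in replicate 1 had a signal of 37.0 and rank 287, and that in replicate 2 a signal of 54.3 and rank 410. The nearest 5′ end was that of Y71G12B.35. The intronic site of sma-9 described above was of the same kind. Across the genome, 678 of the 1014 top pooled peaks overlapped top peaks of both replicates, and 202 of these (29.8%) overlapped no IDR peak. Absence from the IDR list was thus common even for sites that ranked high in each replicate. Among the body size genes, wts-1, which encodes the kinase of the Hippo pathway, came close to the top peaks in all 3 lists, at ranks 1311, 1363 and 1493 in the pooled, replicate 1 and replicate 2 lists.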
